A study of Arabidopsis thaliana with 4 samples.

Results

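CLE peptides are short secreted signals that stem cell niches use to hold the number and position of their stem cells. In the shoot meristem CLV3 is perceived by the leucine-rich repeat receptor kinase CLV1, by its BAM relatives, by RPK2 and by the pair of CLV2 and CRN, and limits WUS. In the root tip the related peptide CLE40 acts with the receptor kinases ACR4 and CLV1 to restrict WOX5 and the columella stem cells, and in the cambium the peptide TDIF, made from CLE41 and CLE44, is bound by PXY, which acts through WOX4 and WOX14. The 10 genes described here, of 32833 in the count table, are the ligand gene CLE40 (AT5G12990) and the receptor genes ACR4 (AT3G59420), CLV1 (AT1G75820), CLV2 (AT1G65380), CRN (AT5G13290), BAM1 (AT5G65700), BAM2 (AT3G49670), BAM3 (AT4G20270), RPK2 (AT3G02130) and PXY (AT5G61480). They were chosen by locus identifier for this known role, at a time when earlier results of these data were known.

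They were followed in callus of Arabidopsis thaliana by RNA sequencing of 4 libraries, 2 of the Col-0 wild type and 2 of the wox5-1 wox7-1 double mutant, which carries mutations in the homeobox genes WOX5 and WOX7. Seedlings of both genotypes had been kept in the dark for 9 days. Their hypocotyl explants were then cultured at 22 °C under constant light on callus induction medium, which holds 2% sucrose, 11 µM of the synthetic auxin 2,4-D and 0.2 µM of the cytokinin kinetin, for 5 to 6 days (labelled as day 6). About 100 calli were used for RNA. Nothing in the labels ties replicates to independent cultures, so each p-value reflects only how far these libraries spread, which may be technical. In bulk callus, fewer cells of a type and less RNA per cell cannot be told apart.

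The libraries held 30041268 to 40008661 reads on genes. WOX5 held 4378 and 5268 reads in wild type callus and 9 and 33 in mutant callus, that is 144 and 146 CPM (reads relative to the scaled library total) against 0.255 and 0.846 CPM. Its mRNA was thus nearly missing from both libraries with the mutant label. WOX7 held 449 and 473 reads in wild type callus and 790 and 864 in mutant callus, so its level does not check the label. Its log2 fold change was 0.68 (SE 0.11, edgeR adjusted p = 0.0335), and without any 1 library it did not pass. All 9 callus founder markers (among them LBD16, PLT3 and SCR) had reads, at a summed 1698 and 1646 CPM in wild type callus, against 1710 and 1517 CPM in mutant callus. PLT3 alone had 920 and 924 CPM in wild type callus, against 822 and 707 CPM in mutant callus. Of these 9, 4 rose and 1 fell (edgeR, which called 11.9% of all tested genes). LBD17 and WOX11 had the smallest p and rose by 1.93 and 1.84 on the log2 scale, while SCR fell by 0.73. The shoot niche genes WUS and CLV3 held at most 2 reads in any library.

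The peptide each CLE gene encodes is set by a short stretch of 12 codons near the end of its coding sequence. The first 3 stretches are the TDIF group, whose products are ligands of PXY, shown because CLE42 fell in the mutant while CLE41 and CLE44 did not pass the threshold. Capitals mark bases that differ from CLE44. All are read 5′ to 3′ on the coding strand of TAIR10.1 (RefSeq).
CLE44: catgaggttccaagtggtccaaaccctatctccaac
CLE41: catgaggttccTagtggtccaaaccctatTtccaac
CLE42: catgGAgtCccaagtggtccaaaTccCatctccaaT
CLE41 differs from CLE44 in 2 bases and CLE42 in 6. They lie at chr4:7662667-7662702 on the minus strand (CLE44), chr3:9047040-9047075 on the plus strand (CLE41) and chr2:14734495-14734530 on the plus strand (CLE42). The second set holds CLE40, its shoot counterpart CLV3, and the CLE genes that rose in the mutant. Capitals mark bases that differ from CLE40.
CLE40: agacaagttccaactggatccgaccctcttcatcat
CLV3: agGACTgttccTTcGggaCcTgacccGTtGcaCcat
CLE16: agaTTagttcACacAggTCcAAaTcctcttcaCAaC
CLE11: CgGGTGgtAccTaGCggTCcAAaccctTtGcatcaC
CLV3 and CLE16 each differ from CLE40 in 13 of 36 bases, and CLE11 in 16. All 4 lie on minus strands, at chr5:4109258-4109293 (CLE40), chr2:11665234-11665269 (CLV3), chr2:228929-228964 (CLE16) and chr1:18128689-18128724 (CLE11).

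Of the 9 members that passed the filter on low counts, BAM1, ACR4 and BAM2 fell, PXY rose, and CLV1, CLV2, CRN, BAM3 and RPK2 did not pass the threshold (quasi-likelihood test of edgeR over 18716 genes, adjusted by Benjamini-Hochberg, threshold 0.05). Over all tested genes 11.9% were called, 6.06% raised and 5.81% lowered. DESeq2 called 5 of the 9 members and 31.8% of all genes, and edgeR blocked by replicate number 6 of the 9 and 25.4% of all genes. Fits without wild type replicate 1 or 2 leave 1 wild type library, and in them all genes lost their call, members included. The median log2 fold change of the 9 was -0.44, with 2 positive and 7 negative, beside -0.001 over all tested genes. In 7 of the 9 the libraries of the genotypes did not overlap, as in 64.4% of all tested genes. CLE40 had 0, 1, 1 and 1 reads and was not tested.

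**Figure D1:**
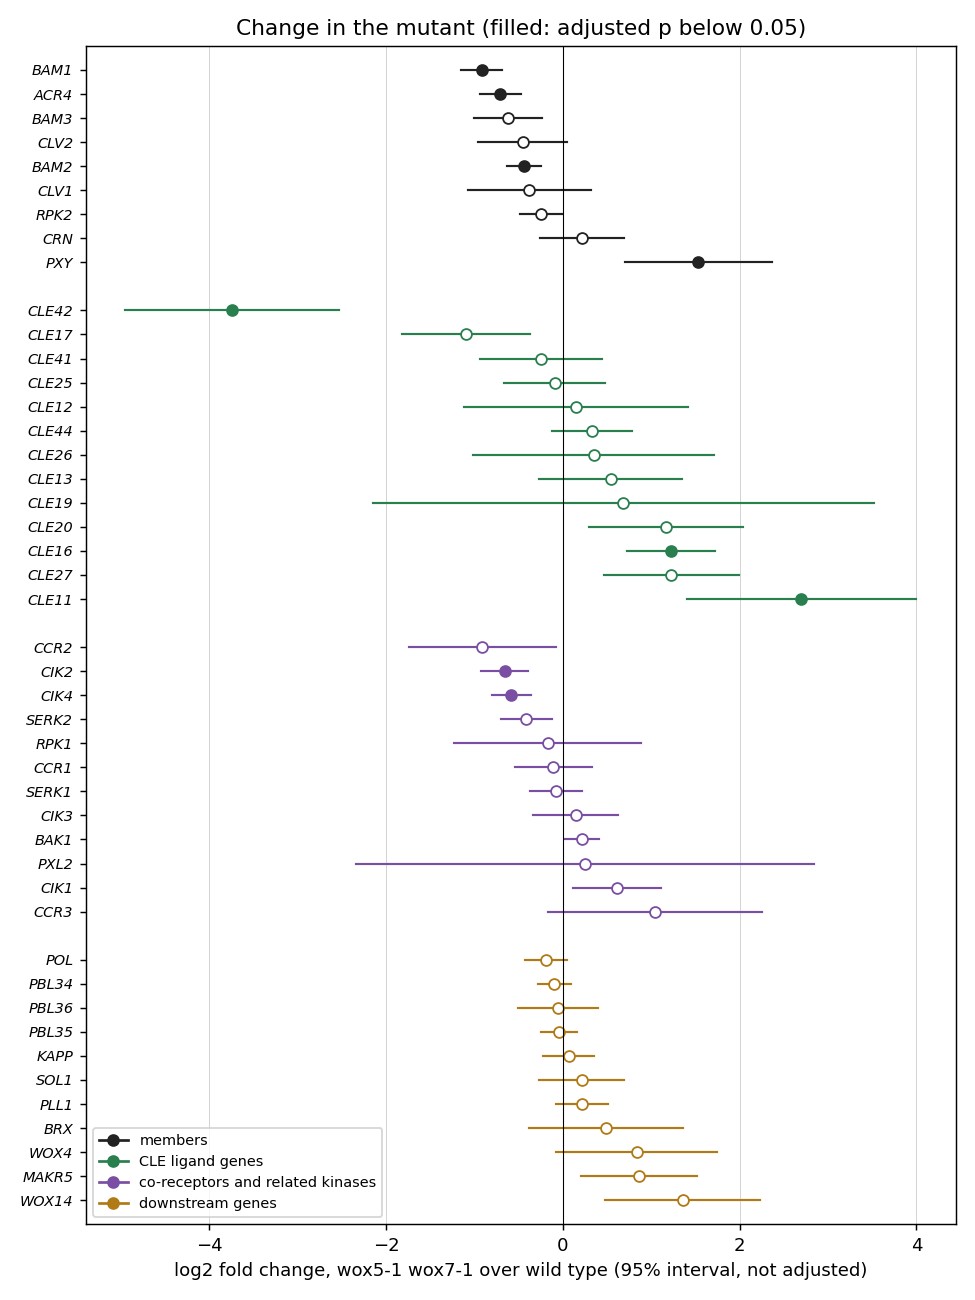
Log2 fold changes of the mutant over the wild type (x axis, points) with unadjusted 95% intervals (lines) for the 9 tested members, 13 CLE ligand genes, 12 co-receptors and related kinases and 11 downstream genes. Filled points passed the threshold: BAM1, ACR4, BAM2, PXY, CLE42, CLE16, CLE11, CIK2 and CIK4.

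CLE40, the root ligand, stood at or next to 0 reads. Wild type replicates 1 and 2 held 0 and 1 reads of it, and each mutant library held 1. Its annotated exons (chromosome 5, minus strand, 4109234 to 4109784) sum to only 259 bases, and 3 reads in a library would correspond to 0.0750 to 0.0999 CPM. At this depth a fall in the mutant was therefore not detectable, and a small rise could not be told from none.

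Its receptor gene ACR4, which in the root restrains columella stem cell division and in shoot tissues helps to specify epidermis, had 66.7 and 63.3 CPM in wild type callus and 41.8 and 37.9 CPM in the mutant libraries. Both mutant libraries lay below both wild type libraries. The fall was -0.71 on the log2 scale (SE 0.09, edgeR adjusted p = 0.0232), from 65.0 ± 2.43 to 39.8 ± 2.79 CPM (SD, n = 2 each). Without wild type replicate 1 or 2, where no gene kept a call, the log2 fold change was -0.66 and -0.75. ACR4 is a single-exon gene on the minus strand of chromosome 3, from 21959646 to 21963180.

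Some markers of tissues where ACR4 acts changed too. The 5 epidermis markers all had reads, at a summed 209 and 218 CPM in wild type callus, against 109 and 135 CPM in mutant callus, and 1 rose and 2 fell, beside 11.9% called over all tested genes. Of these, PDF2, a homeobox gene of epidermal identity, fell by 1.13 on the log2 scale (SE 0.19), and RHD6, a root hair regulator, rose by 4.24 (SE 0.36). ATML1, the closest relative of PDF2 and named here after its values were seen, had 49.5 and 54.2 CPM in wild type callus, against 2.46 and 9.08 CPM in mutant callus, and is the other of the 2 that fell. The 5 root cap markers all had reads, at a summed 24.5 and 29.8 CPM in wild type callus, against 93.2 and 121 CPM in mutant callus, and of 4 tested 1 rose and 1 fell, beside the same 11.9%. Among them SMB, which drives maturation of root cap cells, rose by 3.82 (SE 0.26) and FEZ, which promotes root cap stem cell division, fell by 1.41 (SE 0.20). SMB alone had 7.76 and 4.73 CPM in wild type callus, against 85.8 and 89.4 CPM in mutant callus, most of the mutant sum. BRN2 had no read in the wild type, against 2 and 8 reads in mutant callus, and was not tested. Without either wild type library the calls of all genes were lost. The log2 fold changes of PDF2, RHD6, SMB and FEZ were then -1.13 and -1.12, 3.83 and 4.85, 4.22 and 3.49, and -1.17 and -1.61 without replicates 1 and 2. The FEZ call was also lost without mutant replicate 2 (edgeR adjusted p = 0.0642). The part of these cell types in the ACR4 values was not tested.

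**Figure D2:**
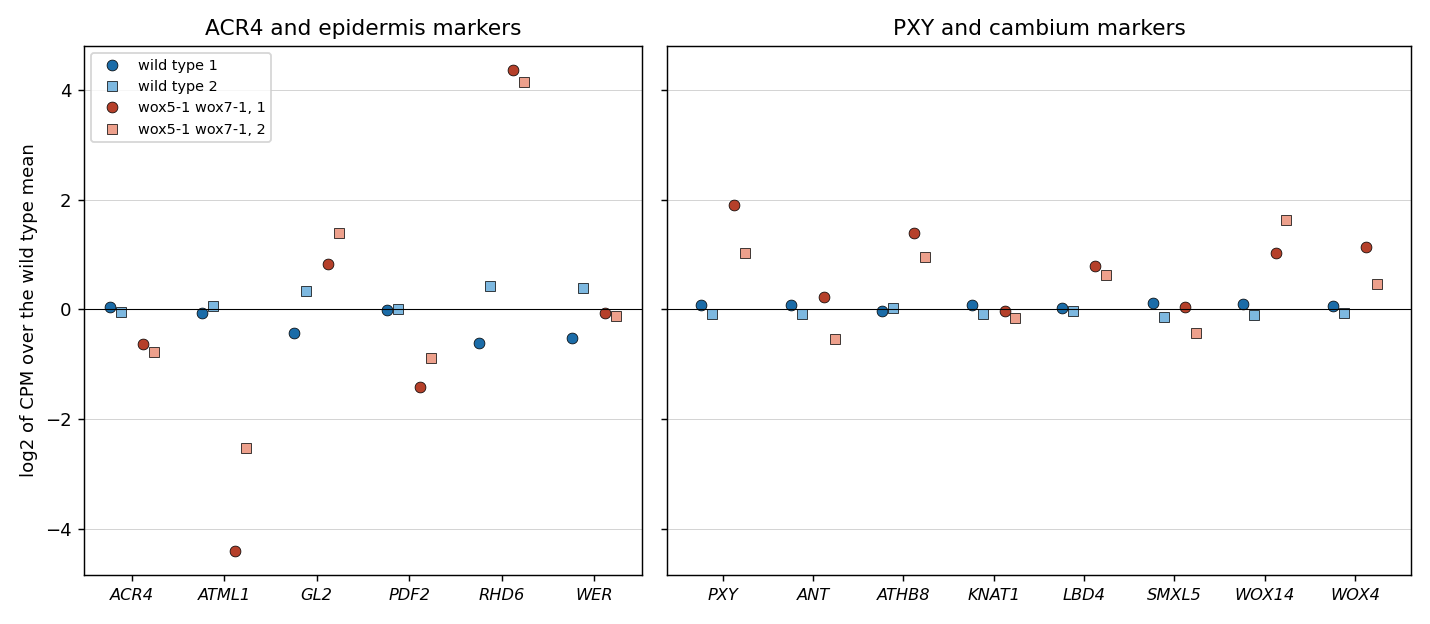
Log2 of CPM over the wild type mean (y axis) in each library for ACR4 with the 5 epidermis markers (left) and for PXY with the 7 cambium markers (right). Circles are replicate 1 and squares replicate 2. ACR4, ATML1 and PDF2 lie below the wild type in both mutant libraries, while RHD6 and GL2 lie above and WER overlaps between genotypes. PXY, ATHB8, LBD4, WOX14 and WOX4 lie above, while ANT, KNAT1 and SMXL5 overlap between genotypes.

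BAM1 carried most of the CLV1-class receptor mRNA in callus. CLV1, BAM1, BAM2 and BAM3 encode closely related receptor kinases that bind CLE peptides, and BAM1 also perceives CLE signals in the root. Per kilobase of exon (RPKM), BAM1 stood at 158 and 159 in the wild type, in the 97.9th percentile of 23344 genes with reads, where CLV1 stood at 1.86 and 1.47. The order of wild type levels was BAM1, ACR4 (18.9 and 17.9 RPKM), CRN (14.9 and 14.4), BAM3 (14.0 and 13.7), BAM2 (12.7 in both) and RPK2 (13.0 and 12.4), CLV2 (10.8 and 9.84), PXY (3.94 and 3.53), CLV1 and CLE40. Only BAM2 and RPK2 overlapped among neighbours in that order.

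**Figure D3:**
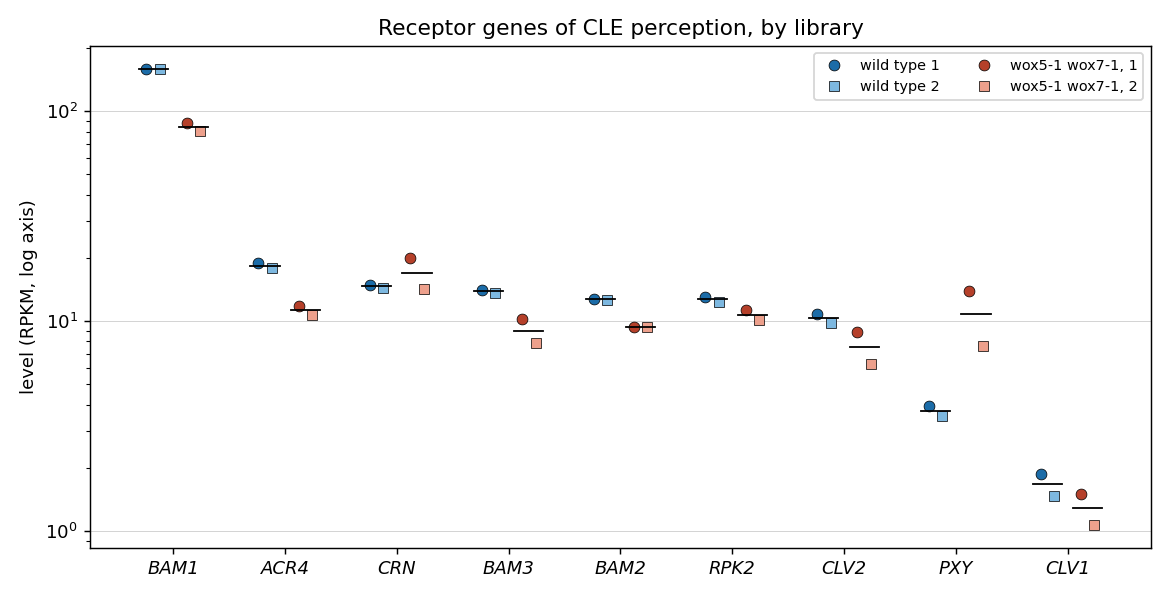
Level of the 9 receptor genes in RPKM (y axis, log scale) in each of the 4 libraries, with bars at the genotype means. BAM1 stands far above the others in every library, and PXY moves from below CLV2 in the wild type to above it in the mutant mean.

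In the mutant BAM1 had 324 and 294 CPM, against 581 and 584 CPM in the wild type. The wild type libraries nearly coincided and lay far above both mutant libraries. The log2 fold change was -0.91 (SE 0.09, edgeR adjusted p = 0.0181), from 583 ± 2.53 to 309 ± 20.8 CPM (SD, n = 2 each), that is 1.89-fold lower. Without wild type replicate 1 or 2, where no gene kept a call, it was -0.91 in both cases. The call held without either mutant library. The exons of BAM1 (chromosome 5, plus strand, 26281642 to 26285413) overlap those of no other annotated gene.

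BAM2, the closest relative of BAM1, had 45.9 and 45.7 CPM in wild type callus, against 33.8 and 33.7 CPM in mutant callus. Replicates agreed closely in both genotypes, and the groups did not overlap. It fell by 0.44 on the log2 scale (SE 0.07, edgeR adjusted p = 0.0364). The call was lost without any 1 of the 4 libraries, although the log2 fold change stayed between -0.45 and -0.43. Without either wild type library all genes lost their call. BAM2 (chromosome 3, plus strand, 18417568 to 18421263) overlaps AT3G49668 on the opposite strand over 443 exon bases, and that gene held 0 reads in all libraries.

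BAM3 (chromosome 4, plus strand, 10949573 to 10953113), known from the phloem, where it perceives CLE45, had 47.9 and 46.7 CPM in wild type callus, against 34.8 and 26.8 CPM in mutant callus. Both mutant values were lower, but they differed from each other by more than the wild type values did. The log2 fold change was -0.62 (unadjusted 95% interval -1.01 to -0.23) and missed the threshold (edgeR adjusted p = 0.0644). It passed without mutant replicate 1 (-0.82, adjusted p = 0.0231) and was -0.44 without mutant replicate 2 (adjusted p = 0.0720). CLE45 itself had no read in any library. Of its 884 exon bases, 838 overlap AT1G69587 on the opposite strand, which held 257 to 339 reads, so the count of CLE45 is uncertain. The 9 protophloem markers all had reads, with NAC045 at 2 or fewer and NAC086 at 8 or fewer, and summed to 144 and 137 CPM in wild type callus, against 180 and 148 CPM in mutant callus. Of the 7 tested, OPS rose by 1.5 (SE 0.16) and SMXL3 fell by 0.83 (SE 0.10), beside 11.9% called over all tested genes. Without either wild type library both calls were lost, like those of all genes (log2 fold changes 1.53 and 1.48, and -0.74 and -0.91). OPS alone had 33.0 and 32.0 CPM in wild type callus, against 106 and 78.0 CPM in mutant callus. The log2 fold changes were positive in 4 and negative in 3, with CVP2 at -0.50 (edgeR adjusted p = 0.0731). The part of these markers in the BAM3 values was not tested.

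CLV1 (chromosome 1, minus strand, 28463344 to 28466971), the founding member of the class, was per kilobase the lowest of the 9 receptor genes in every library. It had 6.61 and 5.23 CPM in wild type callus, against 5.32 and 3.80 CPM in mutant callus, and the groups overlapped. The log2 fold change of -0.38 (unadjusted 95% interval -1.07 to 0.32, edgeR adjusted p = 0.378) covers both no change and a fall as large as that of BAM1.

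Summed over the 4 CLV1-class genes, the level was 187 RPKM in both wild type libraries and 109 and 98.6 RPKM in the mutant libraries, 1.80-fold lower in the mutant. BAM1 made up 84.7% and 85.15% of this sum in wild type callus and 80.8% and 81.5% in mutant callus, a difference of -3.81 percentage points. BAM2 made up 6.79% and 6.76% in wild type callus and 8.55% and 9.47% in mutant callus, and CLV1 never more than 1.37%. All 9 receptor genes together summed to 248.7 and 245.3 RPKM, against 175.2 and 147.4 RPKM. With 2 libraries against 2, the exact two-sided permutation test gives p = 0.333 for each of these differences, the smallest it can give.

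**Figure D4:**
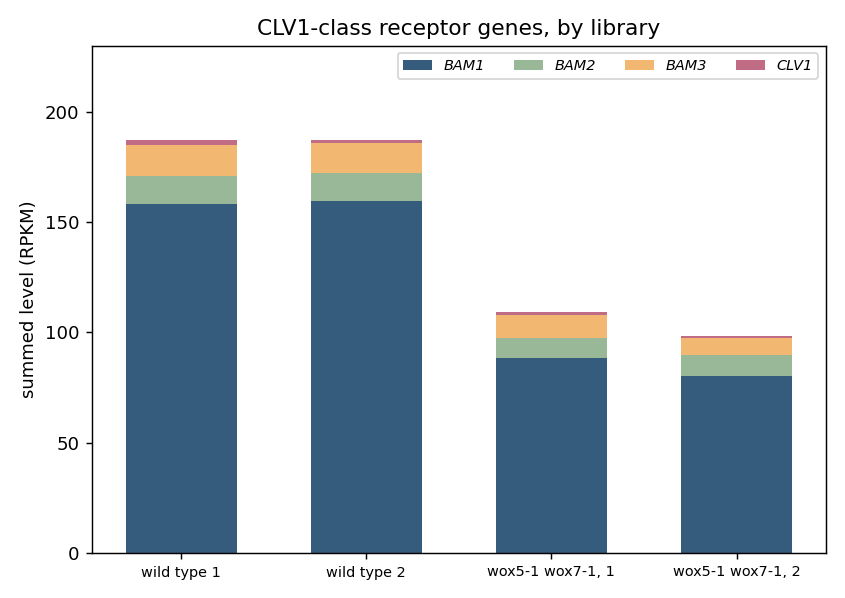
Summed level in RPKM (y axis) of the CLV1-class receptor genes in each library, stacked by gene. The stack reaches 187 in both wild type libraries but 109 and 98.6 in the mutant libraries, and BAM1 fills 80.8% to 85.15% of each.

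BAM1 and BAM2 are the closest pair among these genes, so the coding stretch where they are most alike is shown, from the kinase-coding part of the gene, spliced across an intron, with capitals at the bases that differ.
BAM1: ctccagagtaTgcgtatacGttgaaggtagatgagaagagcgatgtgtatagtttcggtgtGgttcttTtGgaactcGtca
BAM2: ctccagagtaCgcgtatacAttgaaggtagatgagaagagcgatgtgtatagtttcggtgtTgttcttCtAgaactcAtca
The stretch spans chr5:26284419-26284607 in BAM1 and chr3:18420322-18420489 in BAM2. The 41 bases in its middle, between the second and the third capital, are the longest run that the 2 coding sequences share, and over their whole length they are 80.0% identical. For all other pairs among CLV1, BAM1, BAM2, BAM3, PXY and RPK2 the identity was 46.9% to 58.8%, and the longest shared run was 12 to 29 bases. How reads matching both genes were counted is given nowhere in the labels.

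The shoot pathway receptors outside the CLV1 class, CLV2, CRN and RPK2, did not pass the threshold. CLV2 (chromosome 1, plus strand, 24286742 to 24289329), a receptor-like protein without a kinase domain, had 28.0 and 25.5 CPM in wild type callus, against 22.9 and 16.2 CPM in mutant callus. Its groups did not overlap, and its log2 fold change was -0.45 (unadjusted 95% interval -0.96 to 0.05, edgeR adjusted p = 0.182). It passed without mutant replicate 1 (-0.72, adjusted p = 0.0406) and was -0.22 without mutant replicate 2 (adjusted p = 0.323).

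CRN, the membrane-bound kinase-like partner of CLV2, had 36.6 and 35.4 CPM in wild type callus, against 48.7 and 34.7 CPM in mutant callus. Only mutant replicate 1 was above the wild type, and without it the log2 fold change turned from 0.21 (SE 0.18, edgeR adjusted p = 0.459) to -0.054. The ratio of CRN to CLV2 per kilobase was 1.38 and 1.47 in wild type callus and 2.25 and 2.26 in mutant callus, with no overlap (exact permutation p = 0.333, the smallest possible). CRN (chromosome 5, minus strand, 4252842 to 4255378) shares exon bases with AT5G13280 on the other strand, which held 3357 to 4234 reads, so part of its count may belong to that gene.

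RPK2 (chromosome 3, plus strand, 380350 to 384582), a receptor kinase that transmits CLV3 signals independently of CLV1, had 55.0 and 52.4 CPM in wild type callus, against 47.8 and 42.8 CPM in mutant callus. The groups did not overlap. The log2 fold change was -0.25 (unadjusted 95% interval -0.48 to -0.01, edgeR adjusted p = 0.142).

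PXY, the TDIF receptor that keeps cambium cells dividing and orients vascular tissue, was the only member that rose. It had 14.7 and 13.2 CPM in wild type callus, against 52.1 and 28.4 CPM in mutant callus. Both mutant libraries lay above both wild type libraries, and mutant replicate 1 stood well above replicate 2. The log2 fold change was 1.53 (SE 0.31, unadjusted 95% interval 0.70 to 2.36), a 2.89-fold rise, with an edgeR adjusted p of 0.0498, at the edge of the threshold. The adjusted p was 0.0501 with RLE scaling, 0.0544 with upper-quartile scaling and 0.0746 with limma-voom, so the call depends on the method. Without wild type replicate 1 or 2, where no gene kept a call, the log2 fold change was 1.62 and 1.45. Without mutant replicate 1 it was 1.03 and without mutant replicate 2 it was 1.91. PXY lies on the minus strand of chromosome 5 from 24724337 to 24728244.

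The 7 cambium markers all had reads, and summed to 332 and 298 CPM in wild type callus, against 429 and 345 CPM in mutant callus. Of these 2 rose and none fell by edgeR, which raised 6.06% of all tested genes. The log2 fold changes were positive in 4 and negative in 3, with ANT at -0.10, KNAT1 at -0.09 and SMXL5 at -0.17. ATHB8, a homeobox gene of procambium, had 55.5 and 57.1 CPM against 148 and 110 CPM (log2 fold change 1.19, SE 0.16), and LBD4, a cambium regulator, rose by 0.71 (SE 0.10). Without either wild type library both calls were lost, like those of all genes (1.18 and 1.21 for ATHB8, 0.75 and 0.67 for LBD4). Like PXY, ATHB8 was higher in mutant replicate 1 than in replicate 2. WOX4 and WOX14, the targets of PXY signalling, had log2 fold changes of 0.84 (SE 0.34, edgeR adjusted p = 0.175) and 1.36 (SE 0.33, adjusted p = 0.0679). The part of cambium-type cells in the PXY values was not tested.

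Of the 31 annotated CLE ligand genes, CLE40 included, 24 had at least 1 read and 13 passed the low-count filter. CLE16 and CLE11 rose, CLE42 fell and 10 did not pass the threshold, where 11.9% of all tested genes were called. The median log2 fold change of the 13 was 0.35, with 9 positive and 4 negative. CLE44 was the most abundant by reads in every library. CLE25, among the next by mean CPM, had 6.02 and 6.89 CPM against 6.88 and 5.23 CPM.

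**Figure D5:**
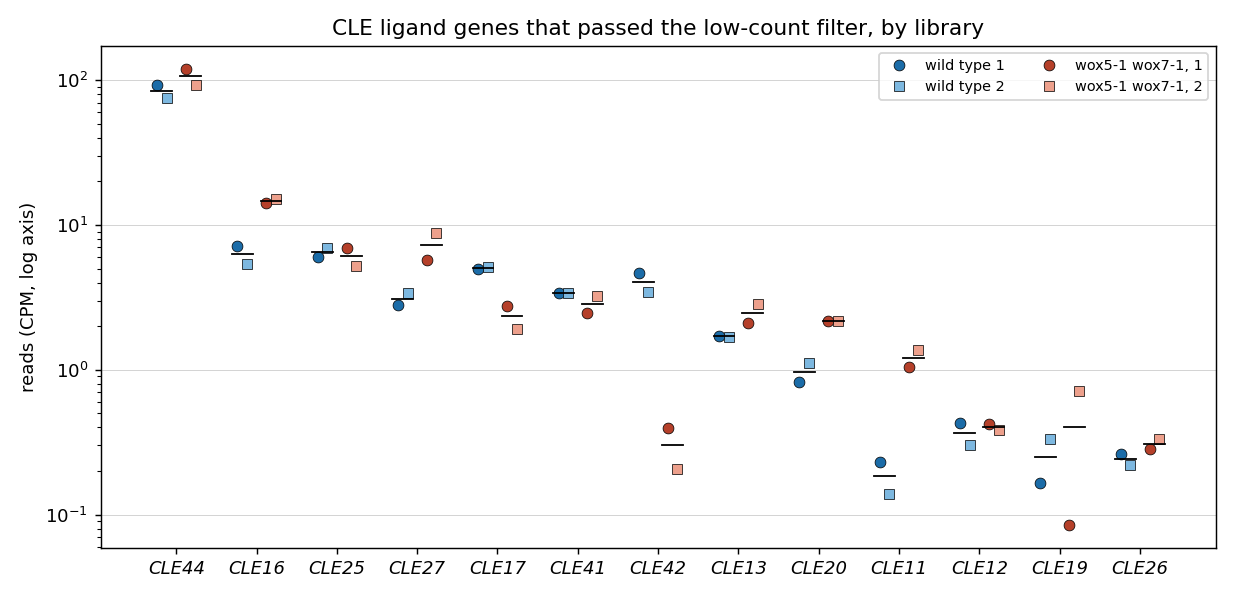
Reads in CPM (y axis, log scale) of the 13 CLE ligand genes that passed the filter, in each library, with bars at the genotype means. CLE42 drops from 4.64 and 3.43 CPM to 0.396 and 0.205 CPM, CLE16 and CLE11 lie higher in both mutant libraries, and CLE44 overlaps between genotypes.

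CLE42, whose product is a TDIF-like peptide, had 141 and 124 reads in wild type callus but 14 and 8 in mutant callus. That is 4.64 and 3.43 CPM against 0.396 and 0.205 CPM, with no overlap. It fell by 3.74 on the log2 scale (SE 0.46, edgeR adjusted p = 0.0232). Without wild type replicate 1 or 2, where no gene kept a call, the log2 fold change was -3.50 and -3.94. With the values as deposited, the constant of 10 included, it was -2.92.

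The genes of TDIF itself did not pass the threshold. CLE44 had 93.2 and 75.7 CPM in wild type callus, against 120 and 92.4 CPM in mutant callus (log2 fold change 0.33, unadjusted 95% interval -0.13 to 0.78, edgeR adjusted p = 0.256). Its exons share 492 bases with AT4G13190 on the same strand, which held 1997 to 5259 reads, so its count is uncertain. CLE41 had 3.39 and 3.37 CPM in wild type callus, against 2.46 and 3.23 CPM in mutant callus (edgeR adjusted p = 0.555). Per kilobase, CLE42 was 8.55% and 7.76% of the 3 TDIF-type genes in wild type callus and 0.633% and 0.416% in mutant callus, and CLE44 86.5% and 86.2% against 96.2% and 94.4% (exact permutation p = 0.333 for both, the smallest possible).

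CLE16 had 7.17 and 5.37 CPM in wild type callus, against 14.2 and 15.1 CPM in mutant callus. It rose by 1.22 on the log2 scale (SE 0.19, edgeR adjusted p = 0.0322). CLE11 was low, with 7 and 5 reads against 37 and 53, and rose by 2.7 (SE 0.49, edgeR adjusted p = 0.0418). For both genes the libraries of the genotypes did not overlap. The CLE11 call was lost without any 1 library (log2 fold changes 2.37 to 3.10) and with limma-voom (adjusted p = 0.0517). Its log2 fold change was 1.60 with the values as deposited. The CLE16 call was lost without either wild type library (1.45 and 1.02 without replicates 1 and 2) or without mutant replicate 2 (1.18). Without either wild type library all genes lost their call. CLE16 shares 333 exon bases with AT2G01510 on the same strand, which held 203 and 278 reads in wild type callus and 159 and 171 in mutant callus and did not pass the threshold.

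Among the co-receptors and related kinases, CIK2 and CIK4 fell. Of 14 listed, 12 were tested, 2 fell, none rose and 10 did not pass the threshold (edgeR; median log2 fold change -0.09), where 11.9% of all tested genes were called. CIK1 to CIK4 are co-receptor kinases that work with CLV1, BAM and RPK2 complexes. CIK2 had 45.6 and 46.4 CPM in wild type callus, against 31.1 and 27.2 CPM in mutant callus (log2 fold change -0.66, SE 0.10, edgeR adjusted p = 0.0312). CIK4 had 85.6 and 77.7 CPM in wild type callus, against 53.6 and 55.6 CPM in mutant callus (-0.58, SE 0.08, adjusted p = 0.0282). In neither did the genotypes overlap. Without either wild type library both calls were lost, like those of all genes (-0.66 and -0.65 for CIK2, -0.50 and -0.65 for CIK4). The CIK4 call was also lost without mutant replicate 2 (-0.60).

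The other CIK genes did not pass, with CIK1 at 40.9 and 37.9 CPM against 70.9 and 49.8 CPM (edgeR adjusted p = 0.101). Of the most abundant in the list, SERK2, which also serves as a co-receptor of PXY, had 162 and 149 CPM against 127 and 107 CPM (log2 fold change -0.41, adjusted p = 0.0817), and BAK1 had 96.9 and 91.4 CPM against 107 and 112 CPM (0.22, adjusted p = 0.123). SERK2 passed with DESeq2 (adjusted p = 0.00219), with the replicate block and without mutant replicate 1, and BAK1 with DESeq2 (0.0149). PXL1, a relative of PXY, had no read. Of its 3743 exon bases, 3295 overlap AT1G08592 on the opposite strand, so its count is uncertain.

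No listed downstream gene of the pathway passed by edgeR. Of the 12 listed, 11 were tested, 2 had an unadjusted p below 0.05, DESeq2 and the replicate block each called 2 and limma-voom 0, and the median log2 fold change was 0.21. Over all tested genes edgeR called 11.9%, DESeq2 31.8% and the replicate block 25.4%. Of all 18716 tested genes, 6247 had an unadjusted p below 0.05 by edgeR, and limma-voom called 1698. The most abundant were PBL34, a cytoplasmic kinase of CLE signalling, with 247 and 253 CPM against 236 and 232 CPM (log2 fold change -0.09, unadjusted 95% interval -0.28 to 0.09), and the phosphatase genes POL (-0.19, interval -0.42 to 0.05) and PLL1 (0.22, interval -0.08 to 0.52), which act in maintaining stem cells below CLV signalling. MAKR5, an amplifier of CLE45 signalling in the phloem, had 27.1 and 28.8 CPM in wild type callus, against 38.8 and 62.9 CPM in mutant callus (edgeR adjusted p = 0.0910).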

How the data were processed

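Values in the table the authors deposited are whole-number counts per gene, none below 10, and 33.1% to 35.3% of genes stand at exactly 10 in a library. Where deposited values averaged over 10 but at most 20, the ratio of observed to Poisson variance was 0.520 (wild type) and 0.539 (mutant), and 2.25 and 2.39 after 10 was taken off. The values were therefore read as counts plus a constant of 10, which was subtracted; this is an inference. Per the submitters' processing notes, the tools were STAR 2.7.2b, Trim Galore 0.5.0 and DESeq2 and the build was TAIR10, with no roles given. No source used here gives the counting tool or its strand setting, and reads from overlapping genes cannot be told apart.

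Tests used edgeR 4.0.16 in R 4.3.3 on all 4 libraries (filterByExpr, 18716 genes; TMM; glmQLFit and glmQLFTest, two-sided, Benjamini-Hochberg, threshold 0.05). The code was also run on simulated counts with known changes. These were drawn independently for each library, so that run does not show how the test behaves on these data. SEs derive from the fold change and its F statistic. RPKM uses the union of exons in the TAIR10.1 RefSeq annotation, which also gave positions and sequences. Alternatives used DESeq2 1.42.0 and limma 3.58.1. Members, gene lists and tests were chosen with earlier results of these data known. Named were WOX5, WOX7, all members, called genes of each pathway list (at most 5 a direction) with its 3 most abundant, and the 2 smallest p of each marker list; any other gene was named with its values known. As an alternative, the deposited values without subtraction were fitted on the same 18716 genes, since the fit over all genes failed. Of the shoot meristem markers (5 listed, 2 tested, neither past the threshold by edgeR), CUC2 and STM had log2 fold changes of -0.32 and -0.70.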

Additional observations from a re-analysis of the deposited data

How the results depend on the processing

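BAM1, ACR4 and BAM2 kept their call and direction under all 8 alternatives that used every library (RLE and upper-quartile scaling, no low-count filter, a CPM of at least 1 in 2 libraries, the values as deposited, DESeq2, limma-voom and the replicate number as a block), with log2 fold changes of -0.93 to -0.91, -0.73 to -0.70 and -0.46 to -0.43. PXY kept its call in 5 of the 8. BAM3 also passed with DESeq2 and with the replicate block (adjusted p = 0.0213), SERK2 with both (0.0206 with the block), BAK1 with DESeq2, and CLV2, CLE44 and CUC2 with the block (0.0482, 0.0319 and 0.0427). DESeq2 called 5946 genes over all, 6 CLE ligand genes, 5 co-receptors and related kinases and 2 downstream genes, and the replicate block called 4750, 6, 4 and 2. In these, 5 and 6 members were called, against 4 in the main edgeR fit, which called 2223 genes over all. A list of 9 tested members leaves little room for a rise like that over all genes. Same-numbered libraries deviated together (correlation 0.56 across genes), but the labels give no meaning to the numbers.

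Leaving out 1 library gave 0 to 2493 genes, 0 to 5 members, 0 to 3 CLE ligand genes, 0 to 4 co-receptors and related kinases and 0 to 1 downstream genes. Without wild type replicate 1 or 2 no gene passed by edgeR, where 3428 and 3346 genes, and 4 and 5 members, had an unadjusted p below 0.05. Such fits leave 1 library in a genotype, assumed to vary like the others, so a lost call does not show an absent difference. The log2 fold change of CRN ran from -0.054 (without mutant replicate 1) to 0.44, and that of CLE25 from -0.30 to 0.10, turning positive without wild type replicate 2 (0.01) or mutant replicate 2; the cause was not tested. The difference in the BAM1 share ran from -4.18 to -3.45 percentage points when 1 library was left out, and was -3.75 per kilobase of coding sequence, a setting chosen after seeing the data. Scaling moved the median of all genes by at most 0.02 on the log2 scale.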

Other observations

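A few marker genes, named with their values known, differed more between replicates than between genotypes. BRN1, a root cap regulator, held 7 and 215 reads in wild type callus, against 18 and 454 in mutant callus. BFN1, a nuclease gene of dying root cap cells, held 37 and 277 against 63 and 560 reads, and LBD29, a callus founder gene, 4 and 44 against 6 and 130. In all 3 the second replicate was the higher one in both genotypes, and none passed the threshold by edgeR (adjusted p of 0.745, 0.674 and 0.589), where the genotypes overlapped.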
